A study of Homo sapiens with 6 samples.

Results

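The genes described here serve protein folding in the endoplasmic reticulum (ER): stress sensors, chaperones, disulfide isomerases and components of ER-associated degradation. They were taken by name from a list of 44 genes grouped by function. On the array, 41 of the 44 had a probe set annotated to that gene alone, and these 41 are all among the 12381 genes tested. The probe sets of PDIA5, TXNDC5 and SYVN1 carry several gene symbols each and were not used. Each gene is represented by its brightest probe set.

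The cells were U251, an established glioma line of human origin, grown on nanofibers spun from poly-caprolactone, a polyester. The fibers were highly aligned in 3 cultures and randomly oriented in 3, and the study describes the cultures as independent. All 6 cultures shared the line, medium with 10% serum and 24 h on the fibers with no added treatment, and each gave 1 Affymetrix HG-U133 Plus 2 array. Arrays are named by group and replicate number, such as aligned 1, and values are log2 signals. The comparison asks which genes differ with the topography of the substrate.

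The ER folds proteins that are secreted or placed in membranes. When unfolded protein accumulates there, the sensors IRE1 (gene ERN1), PERK (gene EIF2AK3) and ATF6 start the unfolded protein response. IRE1 splices the mRNA of the transcription factor XBP1, ATF6 is released by proteolysis as a transcription factor, and PERK slows translation and raises ATF4. ATF6 and XBP1 act on promoters of chaperones and degradation factors, whereas ATF4 acts on genes of amino acid supply and stress. Glioma cells secrete much extracellular matrix, which passes through this compartment.

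Aligned 3 stood apart from the other arrays. Its root mean square distance from the random mean over all genes was 0.38 log2 units, against 0.17 and 0.19 for the other aligned arrays. The random arrays themselves were at 0.09 to 0.13, but each is part of that mean, which makes their distances smaller. Of 9 markers of glioma and astrocytes, 8 passed the filter, with VIM and CD44 above the 99th percentile of each array's probe sets in the median. The astrocyte markers GFAP and S100B lay at the 48.0th and 43.7th percentile, below the middle of the array. The mean over the 9 was 9.84 to 10.4 on aligned and 10.3 to 10.7 on random fibers. Of the defining markers of other cells, CDH5 (endothelium), PTPRC (immune cells), STMN2 (neurons) and LUM (fibroblasts) were at the 26.0th, 18.6th, 17.7th and 7.42th percentile, the lowest of each list. The brightest of each list were PECAM1, CD3E, SYT1 and COL1A1, at the 63.8th, 56.3th, 73.7th and 76.2th percentile. In those 4 lists 2 of 4, 2 of 5, 3 of 4 and 3 of 4 genes passed the filter, and their means spanned 5.32 to 5.52, 5.27 to 5.31, 5.89 to 5.99 and 5.66 to 5.76 on aligned against 5.14 to 5.36, 5.09 to 5.28, 5.67 to 5.80 and 5.55 to 5.66 on random fibers. At an unadjusted p under 0.05 in limma, SYT1 was higher on aligned fibers by 0.56 ± 0.14 (SE) and the glioma markers EGFR and SOX2 differed by 0.45 ± 0.16 and -0.44 ± 0.18, with FABP7 at -0.90 ± 0.44 above that p. None of the markers passed the adjusted threshold. The part of the markers in the results was not tested.

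The major ER chaperones read lower on aligned than on random fibers on average, and XBP1 and ERN1 read higher for the probe sets used. Another XBP1 probe set went the opposite way, at -0.22, and another ERN1 probe set gave 0.12 with overlapping groups. In all these genes the size of the difference depended on the culture. The arrays numbered 1 were nearly alike. The arrays numbered 2 and 3 differed, and most in the pair of number 3. None of the 41 genes passed the test over all genes in limma at an adjusted p of 0.05, where 0% of the 12381 genes passed (0 genes), and the lowest adjusted p among the 41 was 0.472. At an unadjusted p under 0.05, 1 of 41 was higher on aligned fibers (ERN1) and 0 were lower, against 4.72% and 5.81% of all genes, or 10.5% together. The share of these genes is thus below the background of the table. Every aligned value exceeded every random value in 1 of 41 genes and fell short of every one in 0, against 8.71% and 9.33% of all genes. The median log2 difference, aligned minus random, was -0.15 over the 41 genes and 0.01 over all genes, with 30 of the 41 negative. Leaving out aligned 1 moved it to -0.23, and leaving out aligned 3 or random 1 moved it to -0.07. In these bulk samples fewer cells expressing a gene and less RNA per cell cannot be told apart.

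**Figure D1:**
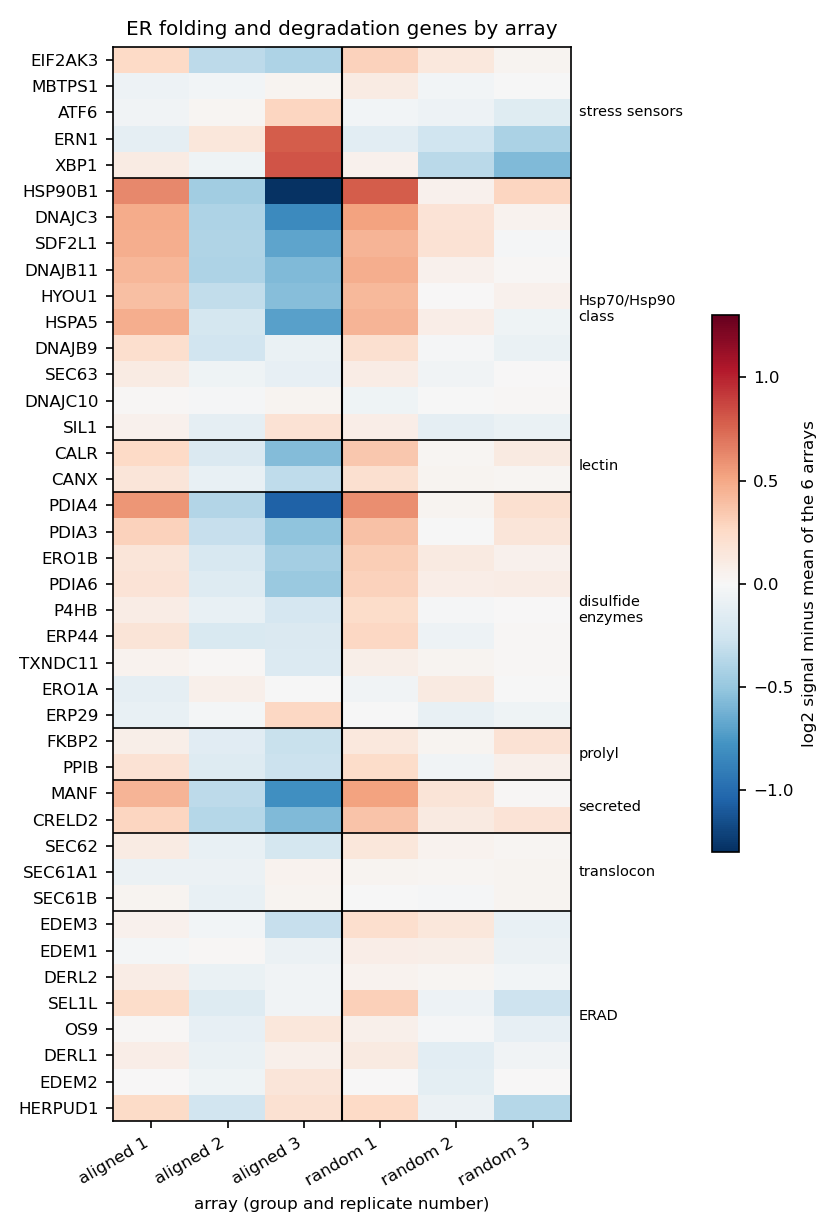
Heat map of the 41 genes (rows, grouped by role) on the 6 arrays (columns); colour is the log2 signal minus the gene's mean over the 6 arrays. Most chaperone rows are red in aligned 1 and random 1 and blue in aligned 2 and aligned 3, with SIL1 and DNAJC10 as exceptions. XBP1 and ERN1 are red in aligned 3.

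Among the Hsp70 and Hsp90 class chaperones, HSPA5, the Hsp70 of the ER that also holds the stress sensors inactive, was among the brightest genes. It read 13.44, 12.74 and 12.27 on aligned 1, 2 and 3 and 13.41, 13.06 and 12.92 on random 1, 2 and 3. Aligned 1 was the highest of all 6 arrays and aligned 3 the lowest, so the groups overlapped. The log2 difference was -0.31 ± 0.28 (SE, n = 3 each; adjusted p = 0.657 in limma). A dimmer probe set of HSPA5 gave -0.56, with 9.67, 8.51 and 7.69 on the aligned and 9.62, 9.14 and 8.78 on the random arrays. Without aligned 3 the difference of HSPA5 was -0.04, and without aligned 1 it was -0.62.

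HSP90B1, the Hsp90 of the ER, read 11.37, 10.30 and 9.47 on the aligned and 11.54, 10.81 and 11.03 on the random arrays. Its log2 difference of -0.75 ± 0.44 was the most negative of the 41 (SE; adjusted p = 0.529 in limma; 1.68-fold higher on random fibers). The groups overlapped through aligned 1 alone. A second probe set gave -0.60, and both carry a suffix for sequence shared with other transcripts. Without aligned 3 the value was -0.29.

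The cofactors of HSPA5 divided into a part that followed it and a part with values near 0. DNAJC3, a J-domain cochaperone, read 10.36, 9.47 and 9.05 on aligned against 10.40, 10.06 and 9.92 on random fibers, with a log2 difference of -0.50 ± 0.31 (SE). The J-domain protein DNAJB11, which delivers unfolded chains to HSPA5, read 11.95, 11.11 and 10.94 against 11.99, 11.57 and 11.53 (-0.36 ± 0.26). Its partner SDF2L1 read 10.54, 9.67 and 9.38 against 10.51, 10.25 and 10.05 (-0.41 ± 0.28). In these 3 genes aligned 1 lay within 0.05 of random 1, and aligned 2 and aligned 3 lay below every random array. HYOU1, which exchanges the nucleotide of HSPA5, read 11.81, 11.10 and 10.87 against 11.85, 11.43 and 11.48 (-0.33 ± 0.24). The other cofactors had values nearer 0. The J-domain protein DNAJB9, which also represses IRE1, read 10.22, 9.75 and 9.91 against 10.21, 9.99 and 9.91 (-0.08 ± 0.14), and DNAJC10, SEC63 and the exchange factor SIL1 were at 0.03, -0.04 and 0.09. Over the 10 genes of this class the median was -0.32 with 8 negative. At an unadjusted p under 0.05 there were 0, against 10.5% of all genes. Leaving out aligned 3, random 1 or aligned 1 gave this class medians of -0.09, -0.18 and -0.61. Leaving out probe sets with a suffix for shared sequence, which removes HSP90B1, HYOU1 and SDF2L1, gave a median of -0.01.

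The promoter of HSPA5 is shown because it holds the element through which ATF6 and XBP1 are known to act on chaperone genes, and those of HSP90B1 and XBP1 because they hold the same element in the genes with the lowest and the highest difference of the 41 for the probe sets used. Each run is the 250 bases before the gene's start (RefSeq, GRCh38.p14), 5' to 3' on the gene's strand. Capitals mark both ends of the ER stress response element, CCAAT and CCACG with 9 bases between them, or their reverse complement.
HSPA5 promoter, chr9:125241344-125241593, minus strand: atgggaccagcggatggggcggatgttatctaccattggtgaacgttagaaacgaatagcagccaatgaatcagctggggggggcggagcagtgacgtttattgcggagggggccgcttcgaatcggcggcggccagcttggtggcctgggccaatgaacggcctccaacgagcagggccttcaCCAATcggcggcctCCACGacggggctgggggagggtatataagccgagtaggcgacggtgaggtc
HSP90B1 promoter, chr12:103930160-103930409, plus strand: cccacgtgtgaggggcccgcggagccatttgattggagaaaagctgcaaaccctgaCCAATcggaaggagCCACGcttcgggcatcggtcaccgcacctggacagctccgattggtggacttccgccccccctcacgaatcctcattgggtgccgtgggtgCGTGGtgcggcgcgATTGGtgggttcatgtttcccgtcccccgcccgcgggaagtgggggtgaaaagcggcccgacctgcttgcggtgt
XBP1 promoter, chr22:28800570-28800819, minus strand: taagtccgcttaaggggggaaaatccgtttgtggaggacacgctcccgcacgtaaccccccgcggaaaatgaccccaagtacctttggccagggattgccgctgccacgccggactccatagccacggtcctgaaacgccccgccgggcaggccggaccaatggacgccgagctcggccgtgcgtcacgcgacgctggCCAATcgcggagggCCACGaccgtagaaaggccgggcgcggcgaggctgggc

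The element was searched on both strands from 250 bases before to 50 after the start, in 42 of the 44 genes that had a promoter sequence. It was present in 8 of the 42 (19.05%) and in 25 of 27305 genes with a promoter in the table (0.0916%), so these 8 are 32.0% of all genes that hold it. It was present in 0 of 80 other ER genes described further on. The matches of the 8 genes, 2 of them in HSP90B1, are printed to show the variable bases in lower case between the fixed ends in capitals, each read on the strand given.
CALR, chr19:12938384-12938402, minus strand: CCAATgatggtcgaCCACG
CANX, chr5:179698778-179698796, plus strand: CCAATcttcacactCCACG
CRELD2, chr22:49918554-49918572, minus strand: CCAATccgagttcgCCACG
ERO1B, chr1:236282183-236282201, plus strand: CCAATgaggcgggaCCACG
HSP90B1, chr12:103930216-103930234, plus strand: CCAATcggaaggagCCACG
HSP90B1, chr12:103930321-103930339, minus strand: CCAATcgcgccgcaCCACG
HSPA5, chr9:125241391-125241409, minus strand: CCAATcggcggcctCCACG
PDIA6, chr2:10812853-10812871, minus strand: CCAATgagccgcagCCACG
XBP1, chr22:28800603-28800621, minus strand: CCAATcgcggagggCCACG

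Of the 8 genes with this element, 7 had a negative difference and XBP1 a positive one for the probe set used. Their median was -0.32, and it was -0.09, -0.28 and -0.61 between the arrays numbered 1, 2 and 3. The 31 measured genes with a promoter and no match had a median of -0.07 with 22 negative, and -0.01 between the arrays numbered 3. These 31 ranged widely between the arrays numbered 3, from PDIA4, DNAJC3 and MANF at -1.26, -0.87 and -0.82 to HERPUD1 at 0.57. Whether the element has a part in the contrast was not tested. A match is a description of these letters and not of binding. A related element, ATTGG and CCACG with 1 base between them, was present in 3 of the 42 genes against 19 of 27305 (0.0696%). It is shown for HYOU1, SDF2L1 and the degradation gene HERPUD1, with the fixed ends in capitals. The copy of HYOU1 farther from the start shares bases with a match to TGACGTGG, an element known to be bound by XBP1, which was present in 5 of 42 genes and in 0.927% of all genes.
HERPUD1, chr16:56932025-56932035, plus strand: ATTGGgCCACG
HYOU1, chr11:119057274-119057284, plus strand: ATTGGaCCACG
HYOU1, chr11:119057380-119057390, plus strand: ATTGGaCCACG
SDF2L1, chr22:21642114-21642124, minus strand: ATTGGtCCACG

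The lectin chaperones bind glycoproteins during folding. Calreticulin, gene CALR, read 11.91, 11.46 and 11.09 on aligned and 12.00, 11.67 and 11.77 on random fibers, a log2 difference of -0.33 ± 0.20 (SE; adjusted p = 0.538 in limma). Its 3 probe sets gave -0.35 to -0.28. The membrane-bound calnexin, gene CANX, differed by -0.18 ± 0.13, and its 4 probe sets that passed the filter gave -0.45 to -0.18. Aligned 3 was the lowest array for both, and without it CALR was at -0.13 and CANX at -0.06.

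Disulfide isomerases form and rearrange disulfide bonds. PDIA4, an isomerase with a wide range of substrates, read 12.21, 11.25 and 10.59 on aligned and 12.23, 11.67 and 11.84 on random fibers. Aligned 1 differed from random 1 by -0.02, whereas aligned 2 and aligned 3 lay below every random array. The log2 difference was -0.57 ± 0.37 (SE; adjusted p = 0.559 in limma), and -0.19 without aligned 3. PDIA3, which works with the lectin chaperones on glycoproteins, differed by -0.35 ± 0.21, and PDIA6, which also attenuates IRE1 signalling, by -0.32 ± 0.16. P4HB, the classical isomerase and a subunit of collagen prolyl hydroxylase, was at -0.15, as was ERP44, which returns unassembled proteins to the ER. TXNDC11 was at -0.08 and ERP29 at 0.10.

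ERO1A and ERO1B are oxidases that reoxidize the isomerases. ERO1B read 7.31, 6.95 and 6.71 on aligned and 7.47, 7.27 and 7.21 on random fibers, a log2 difference of -0.33 ± 0.15 (SE; adjusted p = 0.483 in limma). ERO1A, which is also a hypoxia target, read 9.92, 10.10 and 10.03 against 9.99, 10.16 and 10.03 (-0.04 ± 0.08). Whether the genes differ from each other was not tested. Of the 9 measured genes of disulfide exchange 0 reached an unadjusted p under 0.05, against 10.5% of all genes. In this class 8 were negative, with a median of -0.15. It was -0.09, -0.08 and -0.27 when aligned 3, random 1 or aligned 1 was left out.

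The prolyl isomerases speed the turning of proline bonds. FKBP2 read 9.82, 9.59 and 9.46 on aligned and 9.88, 9.77 and 9.93 on random fibers, which overlapped by aligned 1 alone (-0.24 ± 0.11, SE; adjusted p = 0.474 in limma). PPIB, cyclophilin B, which acts on procollagen, differed by -0.18 ± 0.14. Without aligned 3 they were at -0.15 and -0.08.

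MANF and CRELD2 are small ER proteins that are induced and secreted under ER stress. MANF read 12.18, 11.41 and 10.94 on aligned and 12.26, 11.91 and 11.76 on random fibers, a log2 difference of -0.47 ± 0.29 (SE; adjusted p = 0.547 in limma). CRELD2 read 10.26, 9.61 and 9.40 against 10.35, 10.10 and 10.16, with -0.45 ± 0.21 (adjusted p = 0.482). In both genes aligned 1 lay within 0.09 of random 1, and aligned 2 and 3 lay below all random arrays. Without aligned 3 they were at -0.18 and -0.27, and without aligned 1 at -0.80 and -0.70.

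**Figure D2:**
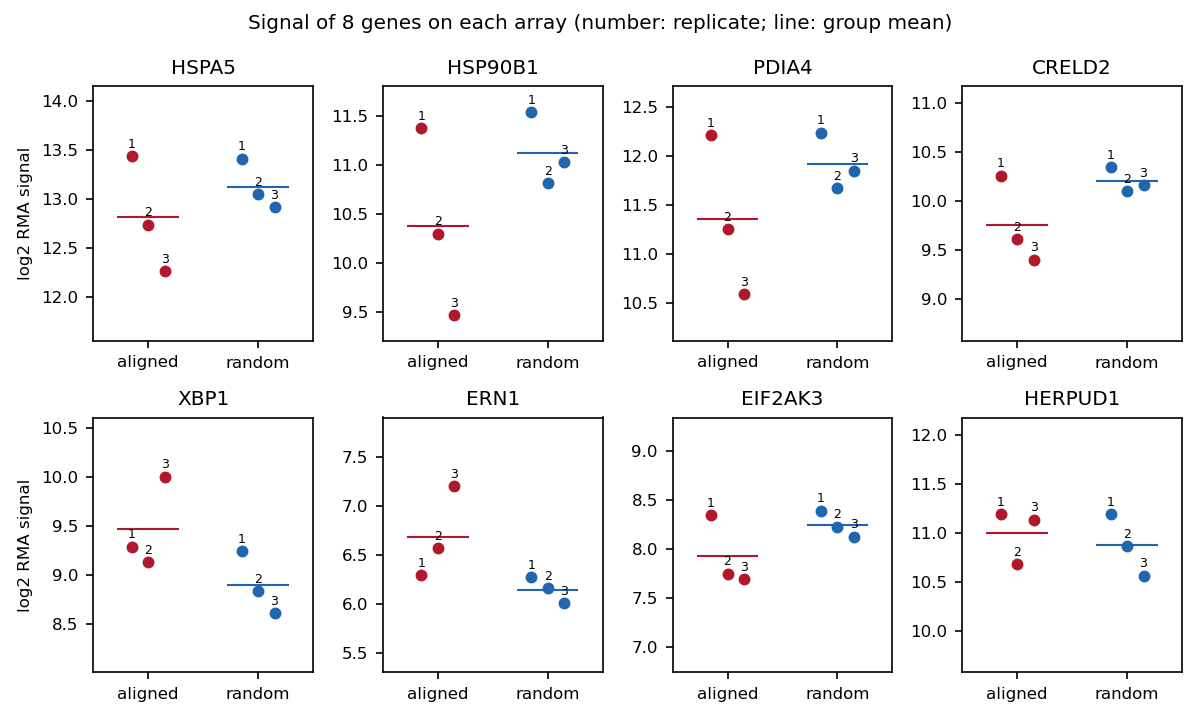
Log2 RMA signal (y axis, all panels of equal span) of 8 genes on the 3 aligned (red) and 3 random arrays (blue); digits are replicate numbers and lines are group means. In HSPA5, HSP90B1, PDIA4 and CRELD2 aligned 1 sits with random 1 and aligned 3 lowest, whereas XBP1 and ERN1 have aligned 3 highest.

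The stress sensors had values of both signs. ERN1 read 6.30, 6.57 and 7.20 on aligned and 6.28, 6.16 and 6.01 on random fibers. Its groups did not overlap, although aligned 1 exceeded random 1 by 0.02 only. Its mean signal was the lowest of the 41, at the 17.3th percentile of all genes tested, with array medians of 5.63 to 5.66. The log2 difference was 0.54 ± 0.21 with a 95% interval of 0.04 to 1.04 (SE; unadjusted p = 0.0378, adjusted p = 0.472 in limma). A second probe set gave 0.12 with overlapping groups, and without aligned 3 the value was 0.28. XBP1 read 9.29, 9.13 and 10.00 against 9.24, 8.84 and 8.61, a log2 difference of 0.58 ± 0.25 (SE; unadjusted p = 0.0509, adjusted p = 0.472 in limma), and 0.31 without aligned 3. The other XBP1 probe set went the opposite way, at -0.22, with 6.08, 6.09 and 5.78 on aligned and 6.06, 6.23 and 6.33 on random arrays. The mean of both probe sets gave 0.18. The direction of XBP1 therefore depends on the probe set, and neither probe set as annotated tells the spliced from the unspliced mRNA.

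ATF6 read 9.12, 9.19 and 9.44 on aligned and 9.13, 9.10 and 9.005 on random fibers (0.17 ± 0.10, SE), with 4 probe sets between 0.05 and 0.19. EIF2AK3, the gene of PERK, read 8.34, 7.75 and 7.69 against 8.39, 8.22 and 8.12, a log2 difference of -0.32 ± 0.18 (SE; adjusted p = 0.509 in limma; -0.20 without aligned 3). MBTPS1, a protease that takes part in the processing of ATF6, was at -0.04. Without aligned 1, ERN1 and XBP1 were the 2 genes of the 41 at an unadjusted p under 0.05 in the positive direction. Of all genes, 9.97% were higher on aligned fibers by the same criterion, a larger share than 2 of 41. In the negative direction there were 18 of the 41, against 10.1% of all genes.

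The translocon carries nascent chains into the ER. Its channel subunits SEC61A1 and SEC61B were at -0.07 ± 0.07 and -0.01 ± 0.07 (SE), and SEC61B read 11.36, 11.22 and 11.36 on aligned against 11.32, 11.30 and 11.36 on random fibers. SEC62, which helps post-translational import, was at -0.15 ± 0.10. The spread between arrays was small for the channel, with a standard deviation of 0.08 on aligned and 0.03 on random fibers for SEC61B.

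ER-associated degradation returns misfolded proteins to the cytosol for the proteasome. HERPUD1, a membrane protein of this machinery and a target of both ATF6 and ATF4, read 11.20, 10.69 and 11.14 on aligned and 11.20, 10.87 and 10.57 on random fibers. Aligned 3 was high and aligned 2 low, unlike in the chaperones, and the log2 difference was 0.13 ± 0.19 (SE; adjusted p = 0.787 in limma; -0.02 without random 3). SEL1L, the adaptor of the ubiquitin ligase complex, read 9.71, 9.30 and 9.43 against 9.78, 9.40 and 9.20 (0.02 ± 0.17), and 1 of its 3 probe sets that passed the filter gave -0.09. EDEM1, which marks glycoproteins for degradation by trimming mannose, read 9.26, 9.30 and 9.21 against 9.38, 9.37 and 9.20 (-0.06 ± 0.08). EDEM2 and EDEM3 were at 0.07 and -0.18, the channel proteins DERL1 and DERL2 at 0.04 and -0.03 and the lectin OS9 at 0.03. Of the 8 measured degradation genes 5 were positive and 3 negative, with a median of 0.02 that was -0.02 without aligned 1 and -0.04 without random 3. Across all roles the probe sets of 26 genes could be compared, and they had 1 sign in 20 of them. The exceptions were DERL1, ERO1A, ERP44, SEC63, SEL1L and XBP1.

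The median difference between substrates over the 41 genes was largest where replicate numbers were 3 and nearest 0 where they were 1. Over the 41 genes the median was -0.05, -0.13 and -0.20 between the arrays numbered 1, 2 and 3, against -0.0020, 0.01 and 0.02 over all genes. For the Hsp70 and Hsp90 class it was -0.01, -0.32 and -0.60, and for MANF and CRELD2 it was -0.08, -0.49 and -0.79. HSP90B1 differed by -0.17, -0.51 and -1.56. The translocon medians were -0.04, -0.11 and -0.0020 and the degradation medians -0.05, -0.10 and 0.14, so this order did not hold there. In 20 of the 41 genes (48.8%) the difference was lowest at number 3 and highest at number 1, against 25.1% of all genes. Aligned 3, the array that stood apart, was the lowest of the 6 arrays in 22 of the 41 genes (53.7%), against 26.5% of all genes. Without it the medians were nearer 0, at -0.09 for the Hsp70 and Hsp90 class, -0.09 for the lectin chaperones, -0.09 for disulfide exchange, -0.12 for the prolyl isomerases, -0.22 for MANF and CRELD2, 0.08 for the sensors and 0.0024 for degradation. The translocon median was -0.07 with and without it.

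**Figure D3:**
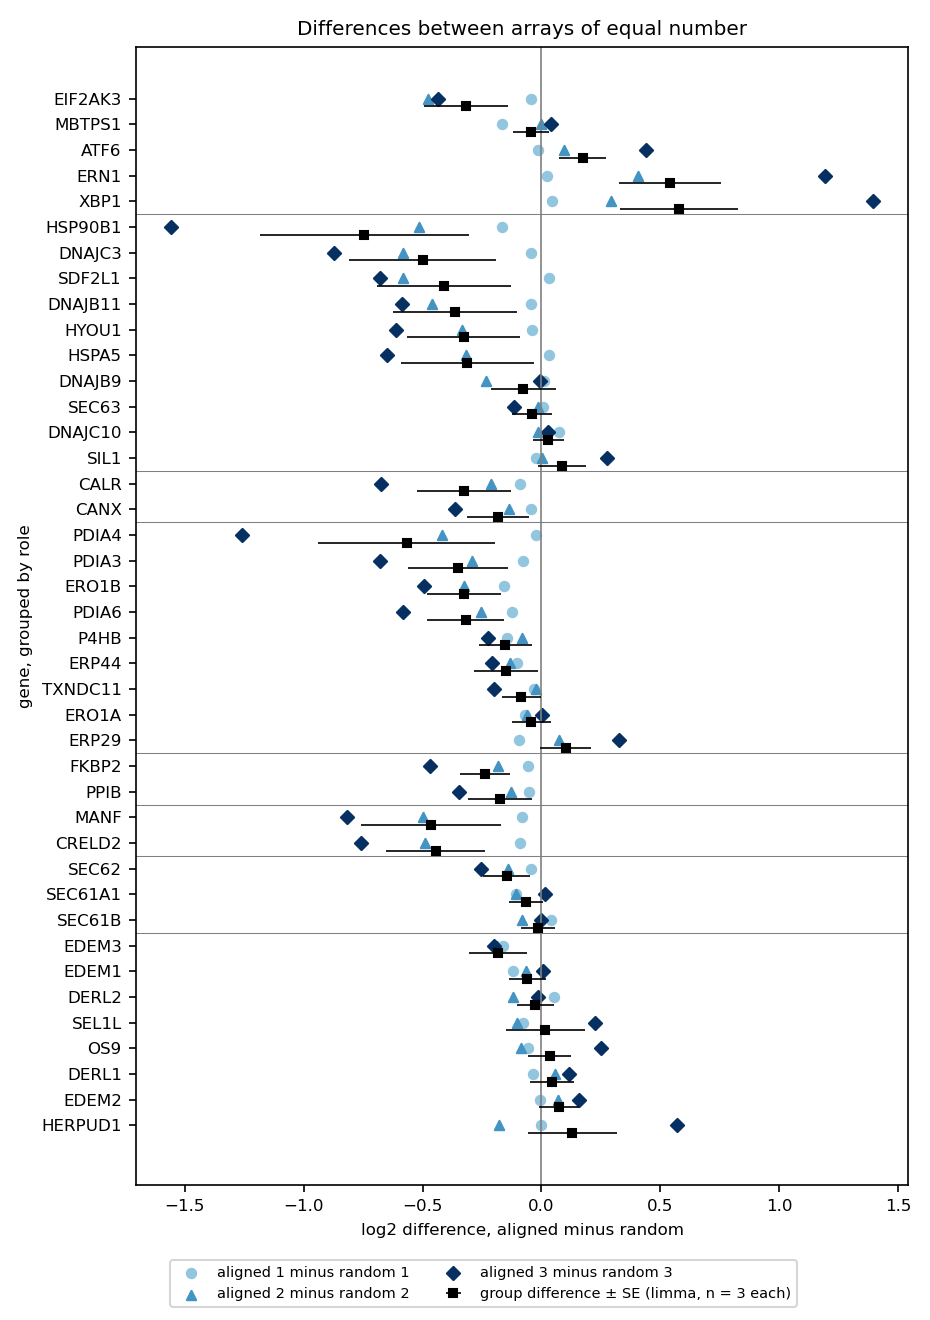
Log2 difference, aligned minus random (x axis), of the 41 genes (y axis, grouped by role): circles, triangles and diamonds are the differences between arrays numbered 1, 2 and 3, and black squares with bars are the group difference ± SE from limma. Circles lie near 0, while for HSP90B1 and PDIA4 the diamonds reach -1.56 and -1.26 and for XBP1 1.39.

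With the replicate number as a block, 12 of the 41 genes were at an unadjusted p under 0.05 in limma. All 12 were lower on aligned fibers, against 7.30% of all genes, and 0 were higher, against 6.32%. They were HSP90B1, HYOU1, DNAJB11, DNAJC3, SDF2L1, PDIA3, PDIA6, ERO1B, MANF, CRELD2, EIF2AK3 and EDEM3. None passed the adjusted threshold, with a lowest adjusted p of 0.362 in limma with the block. Leaving out aligned 1, without the block, gave 18 genes lower and 2 higher, against 10.1% and 9.97% of all genes, and a lowest adjusted p of 0.118 in limma. Leaving out any of the other arrays gave 0 to 2, against 5.04% to 9.67% of all genes.

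The 41 genes also varied among the random cultures, where the substrate is the same. Random 1 was the highest of the random arrays in 37 of the 41 genes (90.2%), against 30.3% of all genes. The median excess of random 1 over the mean of random 2 and 3 was 0.21 log2 units over the 41 genes, 0.37 for the Hsp70 and Hsp90 class and 0.32 for MANF and CRELD2, against -0.02 over all genes. HSPA5 at 13.41 on random 1 against 13.06 and 12.92, and HSP90B1 at 11.54 against 10.81 and 11.03, show its size. On aligned fibers the excess of aligned 1 over the other aligned arrays was 0.28 over the 41 genes and 0.87 for the Hsp70 and Hsp90 class. The highest of all 6 arrays was aligned 1 or random 1 in 29 of the 41 genes (70.7%), against 22.8% of all genes. The spread on aligned fibers exceeded that on random fibers in 35 of the 41 genes (85.4%), against 60.4% of all genes, with median standard deviations of 0.21 and 0.13. What the replicate number stands for is not stated in the labels.

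Other genes of the ER, a list of 100 of which 95 were tested, had a median near 0. At an unadjusted p under 0.05 there were 7 higher and 3 lower on aligned fibers, or 10.5% of the list, the same as the 10.5% of all genes (4.72% higher and 5.81% lower), and 0 passed the adjusted threshold in limma. The 7 all belong to the PERK and ATF4 arm, a list that, like the others, was chosen with earlier results of these data known. With the block there were 10 higher and 6 lower, against 6.32% and 7.30% of all genes. The median difference of the 95 was -0.02. The count at an unadjusted p under 0.05 ranged from 2 to 26 with single arrays left out, against 5.04% to 20.1% of all genes. Of 13 genes of targeting and translocation 8 were negative and 0 reached an unadjusted p under 0.05, with SSR2 of the translocon-associated complex at -0.16 ± 0.07 (SE) and the channel gene SEC61A2 at -0.41 ± 0.20, which was -0.16 without aligned 3. Of 12 genes of N-glycosylation 9 were negative and 0 reached it, with the glucosidase subunit PRKCSH at 0.19 ± 0.10 and the oligosaccharyltransferase STT3B at -0.16 ± 0.10.

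Among 19 further degradation genes 1 was lower at an unadjusted p under 0.05, FAM8A1 at -0.34 ± 0.14 (SE), a partner of the ubiquitin ligase complex, with 9.21, 9.01 and 8.62 on aligned and 9.31, 9.25 and 9.30 on random fibers. VCP, the ATPase that extracts proteins from the membrane, was at -0.30 ± 0.16. Among 26 further folding genes 1 was lower, CNPY4 at -0.31 ± 0.12, with FKBP11 at -0.30 ± 0.13. Among 14 genes of export and retrieval 13 were negative and 1 was lower at that level, the vesicle coat gene SEC24A at -0.21 ± 0.08, with SEC24C and SEC23A at -0.22 ± 0.12 and -0.23 ± 0.13. The lower genes were 5.26%, 3.85% and 7.14% of the degradation, folding and export lists, near the 5.81% of all genes. None of these passed the adjusted threshold.

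The 11 genes of the PERK and ATF4 arm, a list chosen with earlier results of these data known, were all positive. Their median was 0.95, and 0.57 without aligned 3. At an unadjusted p under 0.05 in limma 7 were higher, against 4.72% of all genes. The choice of the list may have raised that count. Whether PERK had a part in these values was not tested, and its gene EIF2AK3 was at -0.32. ATF4 itself read 11.39, 11.77 and 12.32 on aligned and 11.41, 11.14 and 11.02 on random fibers (0.64 ± 0.23, SE; adjusted p = 0.463 in limma). PPP1R15A, which reverses the translational block of PERK, read 8.63, 8.65 and 9.82 against 8.38, 7.77 and 7.78 (1.06 ± 0.33). The kinase-like inhibitor TRIB3 was at 0.95 ± 0.30 and the asparagine synthetase gene ASNS at 1.11 ± 0.33. Between the arrays numbered 1, 2 and 3 the median of this arm was 0.06, 0.79 and 2.03, beside -0.01, -0.32 and -0.60 for the Hsp70 and Hsp90 class. Aligned 3 was the highest of the 6 arrays in 11 of these 11 genes, against 33.5% of all genes. On random fibers random 1 exceeded the others by a median of 0.33 in this arm and by 0.37 in the Hsp70 and Hsp90 class. The arm was divided there, with random 1 the highest random array in 6 of 11 genes (54.5%). In the class it was the highest in 9 of 10 (90%), against 30.3% of all genes.

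**Figure D4:**
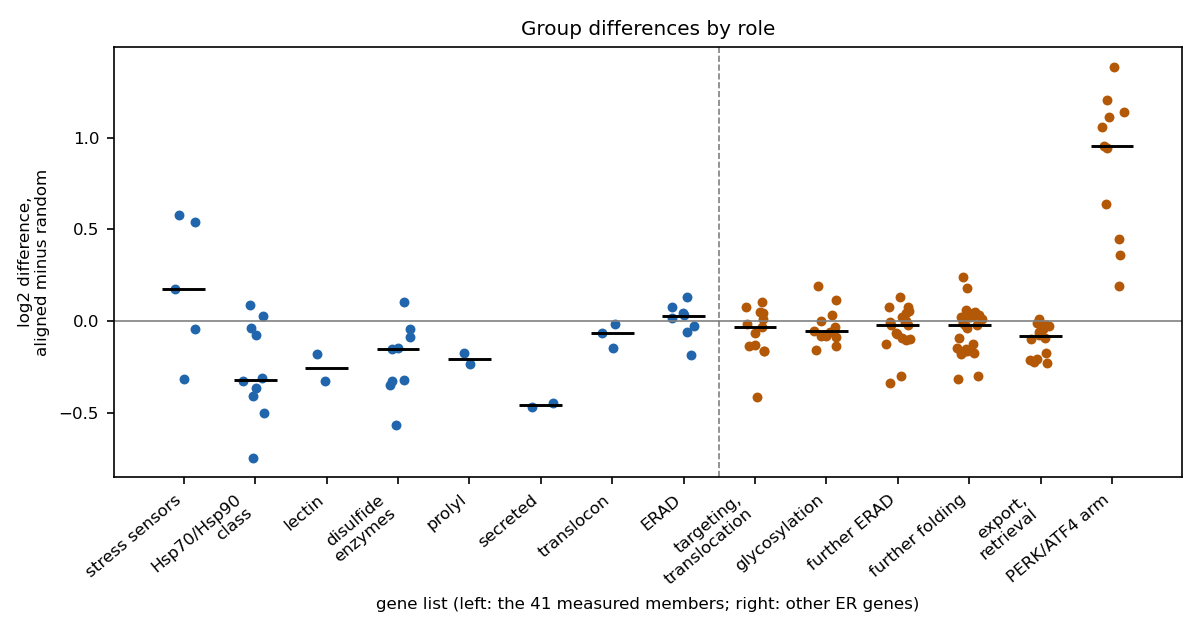
Log2 difference, aligned minus random (y axis), of the 41 genes by role (blue) and of 95 other ER genes by list (brown); each point is a gene and each bar a list's median. The Hsp70 and Hsp90 class and the secreted factors lie lowest, with medians of -0.32 and -0.46, and the PERK and ATF4 arm highest at 0.95.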

How the data were processed

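RNA of 6 U251 cultures, 3 per substrate, was hybridised to 1 array each. Per the submitters' processing notes the authors used RMA, and the deposited table holds the resulting log2 signals; version and settings were not given in the sources used here. RMA gives all arrays nearly 1 distribution, so a shift common to all genes would not appear. Each array left 54613 probe sets after 62 controls. Probe sets were kept when 3 arrays lay above their own median (27621), and each gene took its kept probe set of highest mean over the arrays. Of the probe sets, 41091 had 1 gene symbol, 1801 several and 11721 none in the platform annotation.

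Aligned minus random was fitted across all genes with limma 3.58.1 (lmFit, eBayes) in R 4.3.3, two-sided, with 4 residual degrees of freedom, Benjamini-Hochberg adjustment and a threshold of 0.05. Precision is limited by the number of arrays; the median SE was 0.13 over the 41 genes. The code was tested on simulated data. Members and lists were chosen with earlier results of these data known. Named were 20 genes fixed by function and every gene of the 44 at an unadjusted p under 0.05, with up to 4 per other list by smallest p. Array values of DNAJC3 and FKBP2 were added after they were seen.

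Both groups carry replicate numbers 1 to 3. Deviations from group means correlated across genes by 0.37, 0.32 and 0.11 in pairs of equal number, each over the limit of 0.1, so the numbers were taken as pairs and fitted as a block beside the main fit. Aligned 2 and random 3 also correlated, by 0.19. The labels do not state what the number shares. Promoters came from RefSeq (GRCh38.p14); plots used matplotlib 3.10.9 (Python 3.11.15).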

Additional observations from a re-analysis of the deposited data

How the results depend on the processing

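The direction of the median over the 41 genes held in every setting tried, from -0.23 to -0.067 with single arrays left out. The counts did not. Genes past the adjusted threshold were 0 in every setting but limma's array weights, which gave 2101, with weights of 15.2 for aligned 2 and 0.245 for aligned 3, and called 11 of the 41. Genes at an unadjusted p under 0.05 were 851 with the filter at the 75th percentile, 4326 with array weights, 835 in the ordinary two-sample test, and 624 to 2491 with single arrays left out. Of the 41 genes, 2 reached it with no filter (4.88%, against 9.40% of all genes). With the 75th percentile filter 0 of 38 tested did, a set without ERN1, against 10.9%. Array weights gave 24 (58.5%, against 34.9%), the ordinary test 0 (against 6.74%) and the replicate block 12 (29.3%, against 13.6%). Without shared-sequence probe sets 2 of 33 tested reached it (6.06%, against 10.7%). Without aligned 1 the count was 20 (48.8%, against 20.1%). Without any other single array it was 0 to 2 (0% to 4.88%, against 5.04% to 9.67%). Groups did not overlap in 0 with the 75th percentile filter and in 2 to 26 with single arrays left out, where fewer arrays make separation easier. The share of all genes with separate groups was not counted in these settings. Of the other ER genes 39 reached an unadjusted p under 0.05 with array weights, 2 in the ordinary test, 16 with the replicate block and 2 to 26 with single arrays left out. Small values turned sign: HERPUD1 was at -0.19 and SEL1L at -0.14 with array weights, SEL1L at -0.019 over the mean of its probe sets, and the degradation median at -0.022 without shared-sequence probe sets, a setting that left the Hsp70 and Hsp90 class at -0.011. With single arrays left out DNAJB9 ranged from -0.21 to 0.027, ERO1A from -0.084 to 0.0071, HERPUD1 from -0.025 to 0.29, SEL1L from -0.12 to 0.18, SEC61B from -0.036 to 0.031 and the degradation median from -0.037 to 0.10. The settings for medians by role were chosen after seeing the data. The other 15 of the 20 genes chosen by function kept their sign in every setting run. Where no cause is named, the cause was not tested.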
